A study of Mus musculus with 3 samples.

Results

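The peaks described here were called only once, carried a higher score than most single calls, and lay away from the ends of genes, in a ChIP-seq profile of HIF1α in the mouse embryonic heart. They were chosen by their values in the authors' merged peak list, on the mm10 build, and by their position. The peak name marks a single call, the deposited score is 4 or more, and the peak centre is more than 1 kb from both ends of every annotated gene of any biotype on chromosomes 1 to 19, X and Y. This left 464 of the 17289 peaks of the list. The score, the number of calls and the distance to gene ends are therefore description and carry no test. All libraries came from hearts of wild-type Black-Swiss embryos at E12.5, fixed for 10 minutes in 1.5% formaldehyde and sheared to about 200 bp. There were 2 pulldowns with 4 μg of a rabbit antibody to HIF1α and 1 input without antibody. The labels do not say how many hearts were pooled, whether the pulldowns shared a pool, or which cells of the heart the chromatin came from. A single call is not joined to a call of the other pulldown in the merged list, by a rule that is not given. The file does not mark which pulldown gave a single call, and the depth of the libraries is unknown. The values given here therefore lack an error between pulldowns. The intervals beside shares (95%, exact, by the Clopper-Pearson method) treat peaks as the units. Peaks are not replicates, and these intervals cover counting error only.

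HIF1α is stabilised when oxygen is low. It pairs with ARNT and binds a core of ACGTG or GCGTG in promoters and in enhancers that can lie far from the gene they act on. In the embryonic heart it is known for supporting glycolysis in the compact wall, where oxygen is low. Genes often have several promoters, and the outermost end of a gene model need not be the promoter in use.

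Many of these peaks lay near annotated transcript starts, although none was near an end of a gene. RefSeq annotates transcript starts inside gene models too, and 98 of 445 selected peaks were centred no more than 1 kb from an annotated start (22.0%, interval 18.3 to 26.2%). The 19 peaks on the chromosome that the start table used here does not cover were left out of this count. Among peaks chosen by the same distance rule, the share was 3.83% (interval 3.17 to 4.57%) of single calls with a score of 3. It was 0.549% (interval 0.404 to 0.730%) of single calls with a score of 2, and 12.8% (interval 10.6 to 15.3%) of peaks of 2 calls. Of the 527 peaks of 2 calls that also scored 4 or more, the set most like the selected one, it was 16.9% (interval 13.8 to 20.4%), and this interval overlaps that of the selected peaks. No test was made between these sets, since the score sorted them. All 98 peaks were inside a gene, which the distance rule fixes for any peak so near a start within a gene model. Of the 98, 40 were within 100 bp of the start. The starts belonged to 92 genes. For 45 of the 98 peaks the start was the only one in the table for that gene, and the median start lay 5.14 kb into the gene model from its 5′ end. Some starts lay under 1 kb from that end. They included those of Kmt5b (0.527 kb), Vldlr (0.540 kb) and Kat6b (0.569 kb), whose peaks fell past the 1 kb limit.

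The bases before 7 of these starts show the sequence at or next to the peaks. They are the 5 genes whose start window met a peak with a score of 6 or more, then Mxi1 as the listed HIF target and Dazap1 for its paired peaks. Each line gives the 250 bases that end just before the start, 5′ to 3′ on the strand of the gene, from RefSeq (GRCm38.p6), with every ACGTG or GCGTG on either strand in capitals.
Pafah1b2: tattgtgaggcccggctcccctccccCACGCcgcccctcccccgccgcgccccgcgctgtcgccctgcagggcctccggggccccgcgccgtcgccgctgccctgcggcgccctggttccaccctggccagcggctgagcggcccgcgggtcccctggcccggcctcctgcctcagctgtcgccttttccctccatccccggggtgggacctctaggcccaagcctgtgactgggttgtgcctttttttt
Prpsap1: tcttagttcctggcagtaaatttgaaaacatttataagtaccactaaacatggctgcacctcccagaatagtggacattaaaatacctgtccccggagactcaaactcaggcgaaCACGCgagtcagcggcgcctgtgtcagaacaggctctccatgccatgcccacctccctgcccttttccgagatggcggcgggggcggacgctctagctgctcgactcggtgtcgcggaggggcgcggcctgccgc
Tnrc18: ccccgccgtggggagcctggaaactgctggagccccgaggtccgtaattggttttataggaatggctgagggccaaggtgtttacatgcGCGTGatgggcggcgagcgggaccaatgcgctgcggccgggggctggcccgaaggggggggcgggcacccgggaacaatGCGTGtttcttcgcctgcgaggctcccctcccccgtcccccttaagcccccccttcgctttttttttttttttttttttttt
Phip: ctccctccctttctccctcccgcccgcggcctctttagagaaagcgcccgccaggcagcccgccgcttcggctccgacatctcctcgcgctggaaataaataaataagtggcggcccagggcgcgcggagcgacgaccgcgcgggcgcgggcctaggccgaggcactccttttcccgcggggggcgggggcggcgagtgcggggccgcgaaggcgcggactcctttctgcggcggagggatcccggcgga
Zfp668: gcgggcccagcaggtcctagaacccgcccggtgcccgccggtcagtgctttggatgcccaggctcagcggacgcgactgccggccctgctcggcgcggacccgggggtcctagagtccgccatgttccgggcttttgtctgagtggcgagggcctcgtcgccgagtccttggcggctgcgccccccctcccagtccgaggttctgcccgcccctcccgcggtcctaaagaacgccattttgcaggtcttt
Mxi1: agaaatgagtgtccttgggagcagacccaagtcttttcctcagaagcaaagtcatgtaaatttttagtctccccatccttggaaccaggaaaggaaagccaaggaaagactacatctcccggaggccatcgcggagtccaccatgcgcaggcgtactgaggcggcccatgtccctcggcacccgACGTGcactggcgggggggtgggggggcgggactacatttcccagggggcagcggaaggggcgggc
Dazap1: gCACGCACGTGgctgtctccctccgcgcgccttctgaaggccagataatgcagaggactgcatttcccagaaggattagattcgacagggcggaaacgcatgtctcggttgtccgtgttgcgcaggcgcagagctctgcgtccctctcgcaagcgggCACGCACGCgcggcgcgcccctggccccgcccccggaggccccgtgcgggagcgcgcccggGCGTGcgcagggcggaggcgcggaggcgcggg

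Mxi1 encodes a partner of MAX that opposes MYC and is a known HIF target. Its peak had a score of 5 and lay 69 bp upstream of a start that is 19.3 kb into the gene model (upstream bases at chr19:53329163-53329412, plus strand). The stretch holds a single core, ACGTG, which is inside the peak. Pafah1b2 encodes a catalytic subunit of an acetylhydrolase of platelet-activating factor. Its peak had a score of 7 and lay 202 bp upstream of a start 28.3 kb into the gene (chr9:45984387-45984636, minus strand), with 1 core in the 250 bases. Prpsap1 encodes a regulatory partner of phosphoribosyl pyrophosphate synthetase. It had a pair of peaks, with scores of 7 and 6, centred 266 and 86 bp upstream of its start (chr11:116490347-116490596, minus strand). Dazap1, which encodes an RNA-binding protein, also had a pair, both with a score of 5, at 195 and 90 bp upstream (chr10:80264764-80265013, plus strand). Its stretch held 6 core matches, overlapping ones included, and each of its peaks holds at least 1. Tnrc18 had a peak with a score of 6 at 41 bp upstream and 2 cores (chr5:142817663-142817912, minus strand). The stretches of Phip (chr9:82975490-82975739, minus strand) and Zfp668 (chr7:127875643-127875892, minus strand) held no core. The peak of Phip, which encodes a bromodomain protein, had a score of 6 and was centred 25 bp past the start. That of Zfp668, which encodes a zinc finger protein, had a score of 6 at 119 bp upstream. Most of the Phip peak, and of the Prpsap1 peak with a score of 7, lies outside the printed stretch.

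The core was common in these windows, and so was high GC content. The table gives 300 bases for each start, 250 before it and 50 after. Windows were counted once for each selected peak that met them, which gave 56 windows of 54 genes. Those of Prpsap1 and Dazap1 were each met by 2 peaks and so count 2 times here and below. Of the 56, 43 (76.8%, interval 63.6 to 87.0%) held ACGTG or GCGTG on either strand, against 43.8% of all 32851 windows. The median GC content was 64.2% in the 56 windows and 52.7% in all windows, with a median of 25 and 7 CpG dinucleotides. Read by GC content, all 5 windows under 50% GC met by selected peaks and 23.5% of all such windows held it. From 50% to under 60% GC it was held by 9 of 15 and by 45.2%. Among windows of 60% to under 70% GC, 21 of 25 met by selected peaks (84.0%) and 67.9% of all such windows held the core. At 70% GC or more the shares were 72.7% of 11 and 72.0%. Windows met by other peaks away from gene ends held the core at shares inside the interval of the selected peaks. They were 65.2% of 66 (58 genes) for single calls with a score of 3 and 72.9% of 70 (62 genes) for peaks of 2 calls.

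A narrower count used the peak itself. Of 39 selected peaks that lie wholly in a window, 18 (46.2%, interval 30.1 to 62.8%) held the core. Among single calls with a score of 3 it was 14 of 35 (40.0%, interval 23.9 to 57.9%). In all windows, the stretches at the same offsets held it in 20.8% of cases, and in windows of at least 60% GC in 36.0%, which is inside that interval. Genes whose selected peak held the core were Aars, Adh5, Atg4c, Ccnl1, Dazap1 (both peaks), Dnajb4, Idh1 and Mxi1. The rest were Noc3l, Pom121, Prpsap1, Psmc2, St7, Tiprl, Tnpo1, Tnrc18 and Zkscan2. Other motifs were searched on both strands of the same windows. The GC box GGGCGG was in 78.6% of the 56 windows against 35.7% of all. It was also common in windows met by single calls with a score of 3 (60.6%) and by peaks of 2 calls (42 of 70). The CCAAT box was in 23.2% against 37.4% of all, and in 27.3% and 21 of 70 windows of those sets. The E-box CACGTG, whose matches overlap the core, was in 7.14% against 7.15%. The GATA motif GATAAG was in 5.36% against 7.44%. The AP-1 motif, TGAGTCA with either C or G in its middle, was in 3.57% against 5.20%. A match describes these letters and does not show binding.

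**Figure D1:**
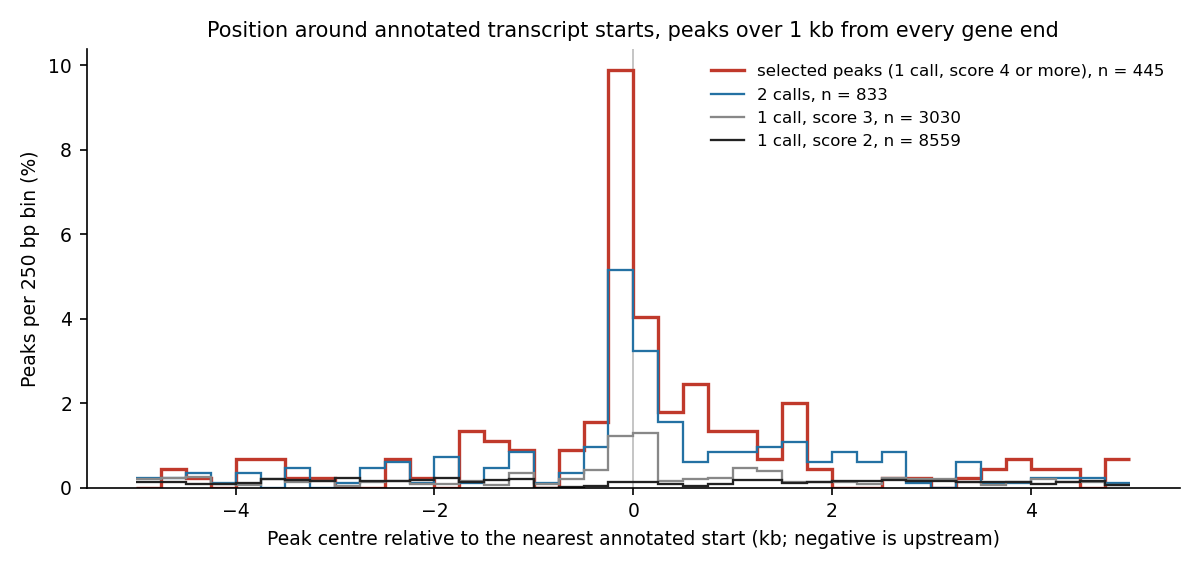
Position of peak centres around the nearest annotated transcript start, from 5 kb upstream to 5 kb downstream, as the share of each set of peaks per 250 bp bin (lines; all sets lie over 1 kb from every gene end). The selected peaks (red, n = 445) reach 9.89% in the 250 bp before the start, against 5.16% of peaks of 2 calls (blue) and 0.129% of single calls with a score of 2 (black).

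Peaks on both sides of the start contributed: 55 of the 98 centres were upstream and 43 at or past the start. Arid1a, which encodes a subunit of the BAF chromatin remodelling complex, had a peak with a score of 6 at 396 bp upstream of an internal start. Kmt5b, which encodes a histone H4 lysine methyltransferase, had a pair with scores of 11 and 10, the highest of the 98, at 657 and 827 bp past the start. Other genes with such a peak and a score of 5 were Mcl1 (a BCL2 family survival factor, 181 bp past the start), Vldlr (a lipoprotein receptor, 550 bp past it) and Kat6b (a histone acetyltransferase, 580 bp past it). These 3 genes and those printed as sequences were named after their values were seen. Of the 98 peaks, 34 had a score of 5 or more. A further 35 selected peaks lay between 1 and 2 kb from a start, which brings the share within 2 kb to 29.9%.

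The remaining selected peaks lay inside genes away from any listed start or between genes. Counting all of them, 303 of 464 (65.3%, interval 60.8 to 69.6%) were inside a gene, and 271 were inside a protein-coding one. The share inside a gene was 68.2% (interval 64.1 to 72.1%) of peaks of 2 calls with a score of 4 or more, 61.6% of all peaks of 2 calls, 50.5% at a score of 3 and 35.8% at a score of 2 (interval 34.8 to 36.8%). It did not rise further with the score among the selected peaks, at 65.3% for a score of 4, 65.1% for 5 and 65.3% for 6 or more. Without the peaks at listed starts, and the 19 on the chromosome that the start table does not cover, it was 194 of 347 (55.9%, interval 50.5 to 61.2%). Within protein-coding genes of known strand, 155 of 224 selected peaks (69.2%, interval 62.7 to 75.2%) lay nearer to the 5′ end of the gene than to its 3′ end. That share was 50.2% of 1987 single calls with a score of 2, 62.6% of 356 peaks of 2 calls and 63.9% (interval 57.7 to 69.8%) of the 255 of these that scored 4 or more. Strand was read from the start table, so the chromosome that it does not cover enters none of these 5′ shares. Without the peaks at listed starts, the share of selected peaks was 76 of 129 (58.9%, interval 49.9 to 67.5%).

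**Figure D2:**
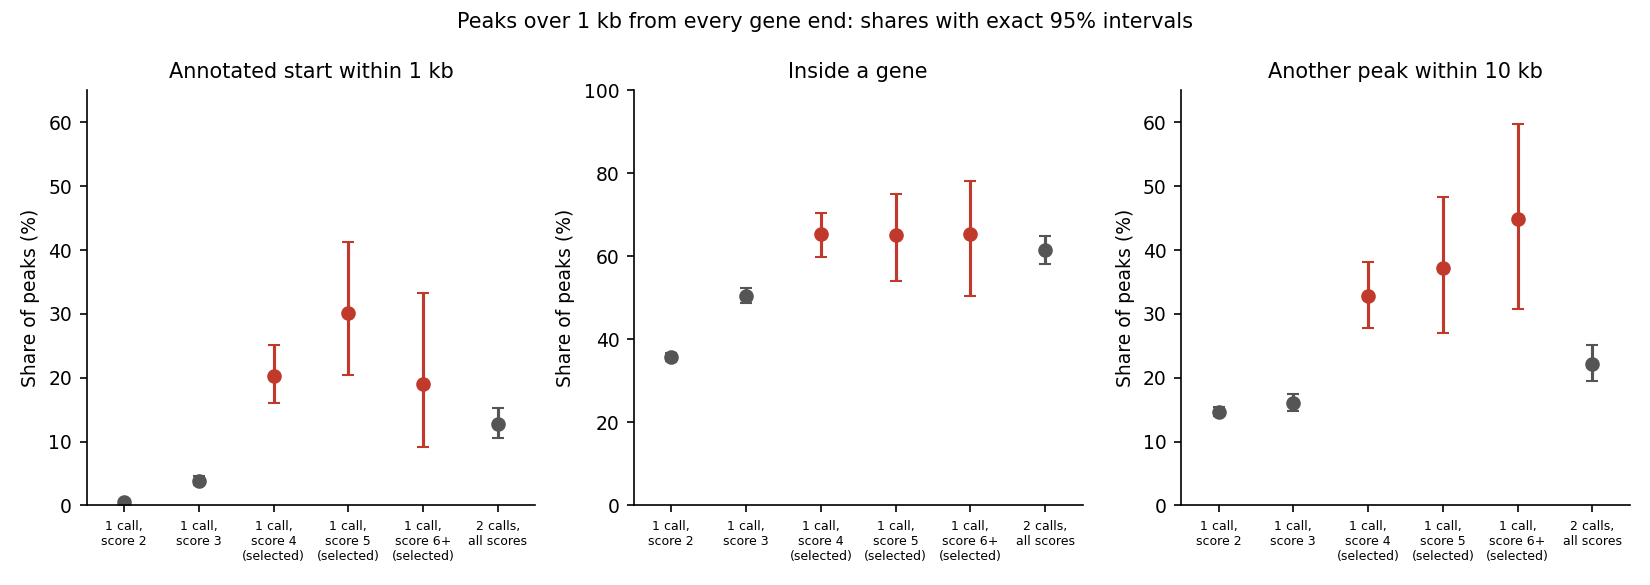
Share of peaks with an annotated start within 1 kb (left), inside a gene (middle) and with another peak of the list within 10 kb (right), in percent, for peaks over 1 kb from every gene end, by number of calls and score. Points are shares and bars exact 95% intervals; the selected peaks are red. Start shares rise from 0.549% at a score of 2 to 20.3% at 4 and 30.1% at 5, and are 19.1% at 6 or more.

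Distances to genes were short for part of the set and long for the rest. The median distance to the nearest gene end was 9.16 kb, with quartiles of 3.36 and 23.6 kb and a farthest value of 280 kb. It was 6.85 kb inside genes and 14.9 kb between genes. In peaks of 2 calls the median was 9.56 kb, in those with a score of 4 or more it was 7.62 kb (interval 6.10 to 9.03 kb), and in single calls with a score of 2 it was 27.1 kb. The nearest peaks to the limit were at Zfp990 (1004 bp), Noc3l (1005 bp), Sav1 (1032 bp), Speer4cos (1037 bp) and Atg10 (1038 bp), all with a score of 4. Just inside 1 kb, and so not selected, were peaks at Spry1 (997 bp, score 5), A330001L22Rik (992 bp, score 4), Gm18604 (975 bp, score 49), and Notch4 and Bok (973 bp, score 4 each). The farthest from any gene end was inside Fgf14, 280 kb from the nearest one, with a score of 4. A peak with a score of 4 lay deep inside Ppargc1a, a regulator of mitochondrial biogenesis, 216 kb from its nearest end. The other 3 of the 5 farthest were between genes, on chromosomes 14 (257 kb), Y (233 kb) and 17 (202 kb).

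Scores were low and closely spaced. Of the 464 peaks, 329 (70.9%) had the lowest score allowed, 86 (18.5%) had 5, and 49 had 6 or more. A score of 3, just under the limit, was held by 3148 single calls that met the same distance rule. Only 6 selected peaks scored 10 or more. One of them, with a score of 62, lay on chromosome 13 inside Jarid2, which encodes an accessory subunit of Polycomb repressive complex 2 needed for heart development, 52.0 kb from its end (44869594 to 44869694). It had no other peak within 100 kb. A peak with a score of 17 lay on chromosome 18 (3004853 to 3004953), in no gene and 22.0 kb from the pseudogene Vmn1r-ps151. It is close to 3000000 bp, below which no peak of that chromosome lies. No protein-coding gene used here lies before it. Input values at these loci were not analysed here.

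The next highest scores were held by genes of varied function, predicted genes and loci outside genes. Vps45, which encodes a regulator of vesicle fusion, held a peak with a score of 11, 14.8 kb from its end. Mid1, a ubiquitin ligase gene on chromosome X, held one of 9 and was assigned 4 selected peaks in all. Acp5 (an acid phosphatase) held a peak of 8 at 2.54 kb from its end, and Cblb (a ubiquitin ligase of immune signalling) one of 8 deep inside the gene. Peaks of 7 lay in Nfkb2 (an NF-κB subunit), Baz2a (a nucleolar chromatin remodeller), Hexim2 (an inhibitor of the elongation kinase P-TEFb), Prpsap1 and C130026I21Rik. Of the 25 highest-scoring peaks, 3 lay in the predicted gene Gm42346 and 1 in Gm34296, both on chromosome 4. Another 4 were on chromosome Y, 2 in a block of chromosome 5 described below, and 1 near the pseudogene Vmn1r-ps60 on chromosome 7.

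**Figure D3:**
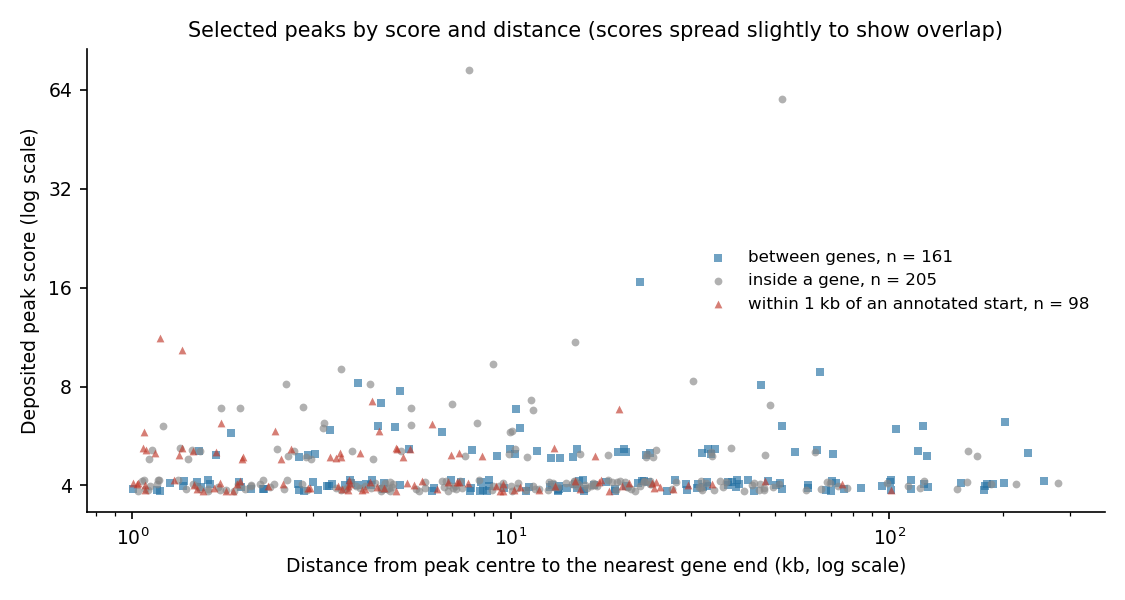
Each of the 464 selected peaks by distance from its centre to the nearest gene end (kb, log scale) and deposited score (log scale), marked by whether it lay within 1 kb of an annotated start (98), elsewhere inside a gene (205) or between genes (161). The 19 peaks on the chromosome without listed starts are counted as elsewhere inside a gene or between genes. Most points lie at scores of 4 and 5 over the whole range of distances, and the peak in Jarid2 (62) is far above them.

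Protein-coding genes were then read by function. A gene was assigned a peak when it held one, or when it had the nearest end to a peak in no gene. This gave 379 of 21779 protein-coding genes (1.74%), of which 256 held a peak. Long genes were assigned one more often, from 0.674% of genes under 10 kb to 5.19% of genes of 100 kb or more, and genes holding a peak had a median length of 71.2 kb against 17.2 kb overall. The shares below stand beside the 1.74% as counts without a test.

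Chromatin regulators and cardiac transcription factors had the most assigned genes among the 15 lists. In the chromatin list 6 of 31 genes (19.4%, interval 7.45 to 37.5%) were assigned a peak. The median length of its genes was 82.6 kb, and 2.35% of all genes of 30 to 100 kb were assigned one. Jarid2 and Arid1a are described above. Kdm2a, a histone H3 lysine 36 demethylase gene, held 2 peaks with scores of 5 and 4, which also lie in the overlapping gene 9430078G10Rik. Chd2, a chromatin remodeller gene, held one of 5 at 17.2 kb from its end. The other 2 were Tet1, a gene for an enzyme that oxidises methylcytosine (score 4, 1018 bp past a start), and Chd8 (score 4). In the cardiac list 5 of 33 genes (15.2%, interval 5.11 to 31.9%) were assigned one. Meis2, a homeobox cofactor gene, held a peak with a score of 5, 1.72 kb from its end. Gata4, which encodes a core cardiac zinc finger factor, held one of 5 at 23.7 kb from its end. Zfpm2, which encodes the GATA cofactor FOG2, held one of 4 at 1.77 kb. Peaks with a score of 4 had Tbx20 (114 kb away) and Gata6 (154 kb away) as the gene with the nearest end, so their link to these genes rests on order along the chromosome alone.

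Hypoxia genes had 3 of 40 assigned (7.50%, interval 1.57 to 20.4%), all with a score of 5. The share over all listed genes, 6.40%, is inside that interval. Besides Mxi1 these were Rora, a nuclear receptor gene with a peak 259 kb from its end, and Zfp395, 14.6 kb from a peak between genes. Glycolysis had 1 of 22, the glucose transporter gene Slc2a3 (score 4, 37.0 kb from its end). The stress response list had 1 of 30, Xbp1 (score 4, 1510 bp past its start), which encodes a transcription factor of the unfolded protein response. Of 30 sarcomere genes, Nebl (430 bp past an internal start) and Pdlim5 were assigned, and of 30 genes of calcium handling and conduction, Camk2d and Kcnj2, all with a score of 4. The Kcnj2 peak was 138 kb away. Cell cycle genes had 2 of 34, the cyclin genes Ccnd1 (1.94 kb away) and Ccnd3 (16.9 kb from its end). Cushion and fibroblast markers had 2 of 21, Vcan and Prrx1, and signalling genes 2 of 37, Smad6 and Fgfr1, all 4 with a score of 4. No gene was assigned a peak among 22 endothelial, 14 epicardial, 18 blood, 26 neuronal and 19 liver genes. With so few genes, these counts of 0 allow shares of up to 15.4, 23.2, 18.5, 13.2 and 17.6% (upper exact limits).

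Some selected peaks were crowded together. Another peak of the list lay within 10 kb of 162 of the 464 (34.9%, interval 30.6 to 39.4%), against 16.1% of single calls with a score of 3, 14.7% with a score of 2 and 22.2% of peaks of 2 calls (21.8% of those with a score of 4 or more). A peak of 2 calls lay within 10 kb of 11.4% (interval 8.67 to 14.7%), against 2.35% at a score of 3 and 0.812% at a score of 2. The share was 7.52% of peaks of 2 calls and 8.87% (interval 6.61 to 11.6%) of those with a score of 4 or more. Part of this came from a few loci. Of the selected peaks, 57 (12.3%) had more than 5 other peaks within 100 kb, against 1.40% of single calls with a score of 2. The largest groups were 20 peaks on chromosome 5 between 14952057 and 15681797, among Speer4d, Gm10354, Gm17019, Gm21149, Gm21190 and Gm21083, and 16 on chromosome Y between 6392844 and 7036320, where no selected peak is inside a gene and Gm20830 has the nearest protein-coding end for most. Another group held 4 peaks at Zfp982 on chromosome 4. Scores in these 3 groups ran from 4 to 9, and read mappability there was not tested. Without the 57 crowded peaks, the share with another peak within 10 kb was 28.0%, the share with a peak of 2 calls there was 6.88%, and the share at a start was 24.4%.

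Chromosome Y held 20 selected peaks, which is 17.5% of its 114 peaks of any kind, against 1.08 to 4.73% on the other chromosomes, and 18 of the 20 were crowded. Per Mb of the span of annotated genes it carried 0.220, within the autosomal range of 0.0684 (chromosome 12) to 0.326 (chromosome 19). Chromosome X carried 0.0597. For single calls with a score of 2 or 3 the values were 0.661 on Y, 1.79 on X and 3.35 to 5.87 on autosomes. The sex of the embryos is not given.

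**Figure D4:**
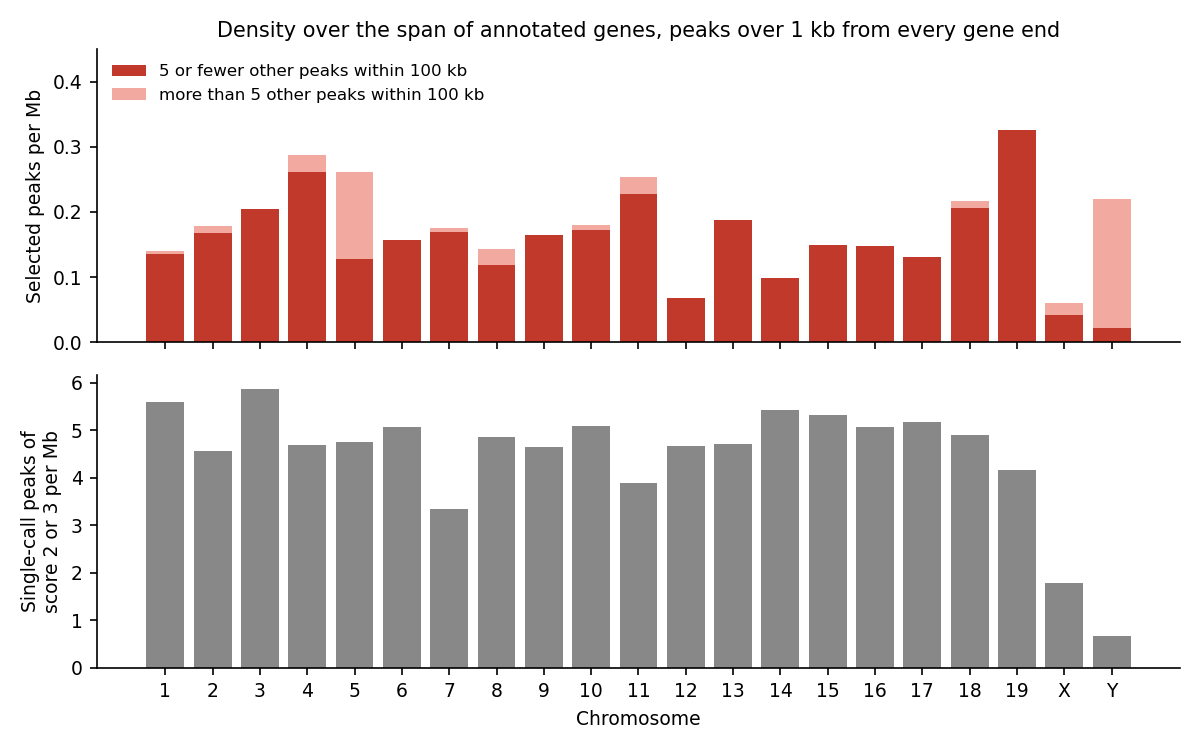
Selected peaks per Mb of the span of annotated genes on each chromosome (top; light bars have more than 5 other peaks within 100 kb) and, for the same distance rule, single-call peaks with a score of 2 or 3 per Mb (bottom). Of the selected peaks, 18 of 20 on chromosome Y and 20 of 39 on chromosome 5 are in crowded loci, while chromosome 19 has the highest density, 0.326 per Mb, with none.

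At the finest scale, 21 selected peaks had another peak centred within 250 bp, and in all 21 cases that neighbour was also a single call. That the neighbour was a single call is not particular to the selected peaks. No peak of 2 calls over 1 kb from every gene end had another peak so near (0 of 851), and the shortest such distance was 259 bp. Whether the merging rule, which is not given, keeps other peaks out of that range was not tested. The share with a peak within 250 bp was 4.53% (interval 2.82 to 6.84%) of selected peaks. It was 1.43% of single calls with a score of 3 and 0.767% with a score of 2. The 21 peaks include 9 pairs in which both peaks were selected, 105 to 227 bp apart. The pairs lay in Dazap1, Prpsap1, Kmt5b, Hexim2, Nfia, Ifitm10, Zfp982 and Gm42346, and between genes nearest to Gask1b. Scores within a pair differed by 3 at most (7 and 4 in Hexim2). Nfia encodes a nuclear factor I transcription factor, and Nfib, a gene of the same family, was assigned 3 selected peaks, all with a score of 4. Which pulldown gave each peak of a pair is not marked.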

How the data were processed

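Chromatin of 2 HIF1α pulldowns and 1 input was sequenced. The submitters' processing notes name Bowtie2, HOMER and mm10, without versions. The authors called peaks in each pulldown against the input and merged the calls into 1 list, per the file headers. The score of each peak was made by the authors in that step and is used as deposited; it is a whole number whose scale is not given in the sources used here, so it only ranks and selects peaks. Calling threshold, merging rule and depth are likewise not given in the sources used here.

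Gene positions came from a RefSeq table of GRCm38.p6, the build of mm10, with 49603 genes on chromosomes 1 to 19, X and Y. Another 340 genes listed below 3000000 bp on chromosomes other than Y, where 0 peaks lie, and 17 without a chromosome were left out. Transcript starts (32851, of 27025 genes) and their sequences came from a RefSeq promoter table. The planned sequence counts over all peaks need a genome and were not run; counts in promoter windows, annotated starts and the position along the gene were added after the file was seen. A peak centre was placed against genes, starts and other peaks with Python 3.11.15 and pandas 2.3.3 (intervals by SciPy 1.17.1); placement was tested on simulated peaks.

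The selected peaks and the 15 gene lists were chosen with earlier results of these data known. All but 1 of the 407 listed symbols matched a protein-coding gene. Named by rule were the 25 peaks with the highest score, up to 4 assigned genes per list by score (for the chromatin and cardiac lists all were given, the rest after their values were seen), genes with 3 or more selected peaks, and the 5 peaks nearest to and the 5 farthest from a gene end. One peak that the rule names is not reported here. Genes with 3 or more not named elsewhere are given in the closing section. Alternatives changed the score limit, the distance limit, the biotypes and the chromosomes, joined close peaks, and left out crowded ones.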

Additional observations from a re-analysis of the deposited data

How the results depend on the processing

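No paired analysis was possible because the file holds 1 merged list, so neither a pulldown nor the input could be left out. The share inside a gene (65.3%) moved beyond its interval with scores of at least 3 (52.4%) and over 5 kb from every gene end (59.3%). The share with another peak within 10 kb (34.9%) moved to 40.0% with scores of at least 5, 18.5% with scores of at least 3, 27.8% with close selected peaks joined and 28.0% without crowded peaks. The share within 1 kb of a start (22.0%) became 6.16% with scores of at least 3, 15.7% over 5 kb and 32.8% over 500 bp from every gene end, 28.0% with ends of protein-coding genes alone, and 17.3 and 29.9% with windows of 500 bp and 2 kb around starts; these alternatives were chosen after seeing the data. The median distance to a gene end (9.16 kb) was 6.95 kb with scores of at least 5, 18.1 kb with scores of at least 3, 19.1 kb over 5 kb and 5.04 kb over 500 bp from gene ends, and 6.81 kb with protein-coding ends alone. The 379 assigned genes became 114 with scores of at least 5, 2254 with scores of at least 3 and 239 over 5 kb from gene ends. Moving a limit changes the set itself, since 3612 peaks have scores of at least 3 and 135 of at least 5. Of 120 list counts under the alternatives, 90 stayed within 1.5 times the reported count and 30 did not. Lists with a reported count of 0 stayed at 0 under every alternative other than scores of at least 3. Joining close peaks changed no list count, so the 90 are not a measure of stability. Unknown depth limits all of these values, as peaks missed in the other pulldown cannot be told apart from peaks absent there.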

Other observations

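Genes with 3 or more selected peaks that are not described above were Gm20830 on chromosome Y (15 peaks, each between genes with Gm20830 as the nearest protein-coding gene), Gm21190 (4) and Gm17019 (3) on chromosome 5, and 4932411N23Rik on chromosome X (3, with scores of 4 to 6). Zfp982 was assigned 4. Of the 400 protein-coding genes whose symbol begins with Zfp, a zinc finger naming family, 13 (3.25%) were assigned a selected peak, against 1.74% of all protein-coding genes; this family was picked after the values were seen, and neighbours such as Zfp978, Zfp987, Zfp990 and Zfp982 lie on the same chromosome.

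Selected peaks between genes did not lean strongly to either side of the nearest protein-coding gene. Of 134 with a neighbour of known strand, 73 (54.5%, interval 45.7 to 63.1%) were upstream of it, and 51 of the 161 were over 100 kb from any protein-coding gene end.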
